A study of Mus musculus with 20 samples.

Results

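Samples labelled as bone marrow endothelial cells, from mice 14 days after total body irradiation (TBI), were compared with those from mice 6 hours after it, across all genes measured. Day 14 is taken here as the regenerating state and 6 hours as the acute one. The members were the 5 arrays titled for day 14 and the 5 titled for 6 hours, 10 of the 20 arrays in the study. Every mouse was an adult C57/Bl6 animal of 8 to 10 weeks that received 5 Gy, and no genotype, allele or further agent is named for either group. Cells are described as VE-cadherin+, by the adhesion protein that Cdh5 encodes, and the labels do not say how they were sorted or whether an array holds 1 animal or pooled animals. The titles call the arrays of each group biological replicates. The p-values measure only the spread between these samples, which need not be the spread between single mice. The other groups, 5 non-irradiated arrays and 5 arrays from 24 hours, entered the model for its estimate of that spread. Non-irradiated levels are given beside some results, but the labels name no non-irradiated mice kept for 14 days.

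Endothelial cells line the vessels of the marrow, where wide, leaky sinusoids drain thinner arterioles. They hold blood stem cells in place and feed them with factors such as stem cell factor (Kitl) and Cxcl12. Ionizing radiation breaks DNA and activates p53, which halts the cell cycle and can start cell death, and it removes most dividing blood cells of the marrow. Sinusoids are damaged and later repaired, and red cell precursors are among the cells that expand while blood formation recovers.

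Signals are the deposited Affymetrix intensities on a linear scale, on which every array has the same trimmed mean. A change is the difference of the group means of log2(signal + 1), day 14 minus 6 hours, given with the standard error (SE) of the limma fit. A gene was called when its two-sided Benjamini-Hochberg adjusted p over all 18193 genes was under 0.05. The array background is the 95th percentile of 27 probe sets for bacterial genes that the samples lack. It lay between 31.8 and 51.5 at 6 hours and between 17.5 and 32.8 on day 14. Where all 5 arrays of the lower group were at or under it, the change is a lower bound ("at least").

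The arrays of the compared groups differed in their technical properties as well as in time. The median signal was 149 ± 9.21 (SD, n = 5) at 6 hours and 94.5 ± 8.39 on day 14, and the mean log2 signal of the bacterial hybridization controls was 12.8 ± 0.16 and 12.1 ± 0.16. The log2 difference between the 3' and 5' probe sets of Gapdh, a sign of RNA length, was 1.58 ± 0.29 at 6 hours and 0.89 ± 0.12 on day 14. Pairs of arrays from 6 hours differed by a median of 0.611 to 0.676 on the log2 scale and pairs from day 14 by 0.285 to 0.351. The spread pooled over 4 groups thus understates that of the 6-hour arrays, and a fit on the 2 groups alone called 3048 genes higher and 3795 lower. All 30 pan-endothelial markers measured lay above the background on all 10 arrays, and so did all 20 markers shared by leukocytes, with Ptprc (CD45) at 2722 ± 476 at 6 hours and 2726 ± 182 on day 14. Of 26 erythroid markers, 19 lay above it on all 5 arrays of 6 hours and 24 on all 5 of day 14, so the samples also held RNA of genes that mark blood cells.

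**Figure D1:**
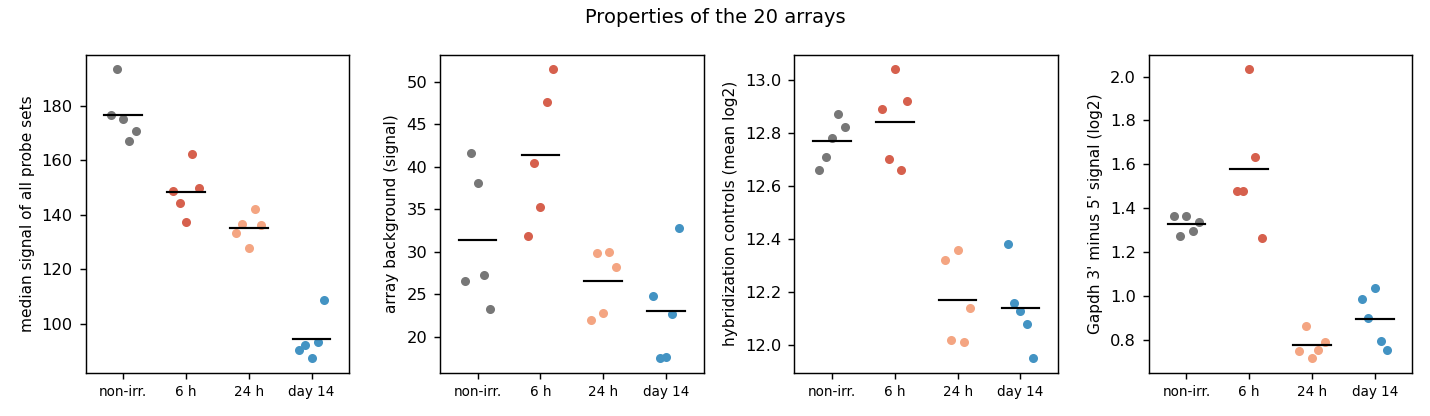
Median signal of all probe sets, array background, mean log2 signal of the bacterial hybridization controls and the 3' to 5' probe set difference (log2) for Gapdh on each of the 20 arrays (points), with the group mean (bar), for the non-irradiated, 6-hour, 24-hour and day 14 groups of 5. The day 14 arrays had a mean median signal of 94.5 and those of 6 hours one of 149.

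Of the genes tested, 44.9% were called. On day 14, 3611 genes were higher (19.8% of all tested) and 4553 were lower (25% of all tested), and 2002 and 3307 of them by at least 2-fold. Changes of at least 8-fold numbered 154 rises and 179 falls. For 500 of the lower calls all 5 day 14 arrays lay at or under the background. For 60 of the higher calls all 5 arrays of 6 hours did. All 5 day 14 arrays lay above all 5 arrays of 6 hours for 2383 genes (13.1%) and below them for 2749 (15.1%). The median change of all genes was -0.27 on the deposited scale, and it was 0.38 with each array centred on its median, which adds 0.65 to every change, and 0.06 after quantile normalization. The split of higher and lower calls moved with this choice, to 6650 and 1756 with centring and to 4031 and 2880 with quantiles. In all 3 scalings 3382 genes were called higher and 1698 lower, while 82 were called in opposite directions on the deposited and the centred scale. With the 3' minus 5' signal of Gapdh as a covariate the calls numbered 2109 and 2289. That signal itself differed between the groups, so the covariate cannot be cleanly separated from time. Whether a call lost with it depends on RNA length was not tested. Below, centred counts are given for most lists, and centred changes for genes described by a value whose direction or call they alter. Differences from the non-irradiated arrays are given on the deposited scale only. The median signal of those arrays was 177 ± 10.1, above that of both compared groups. Centring would therefore raise these differences, and those of day 14 by more than 0.65.

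**Figure D2:**
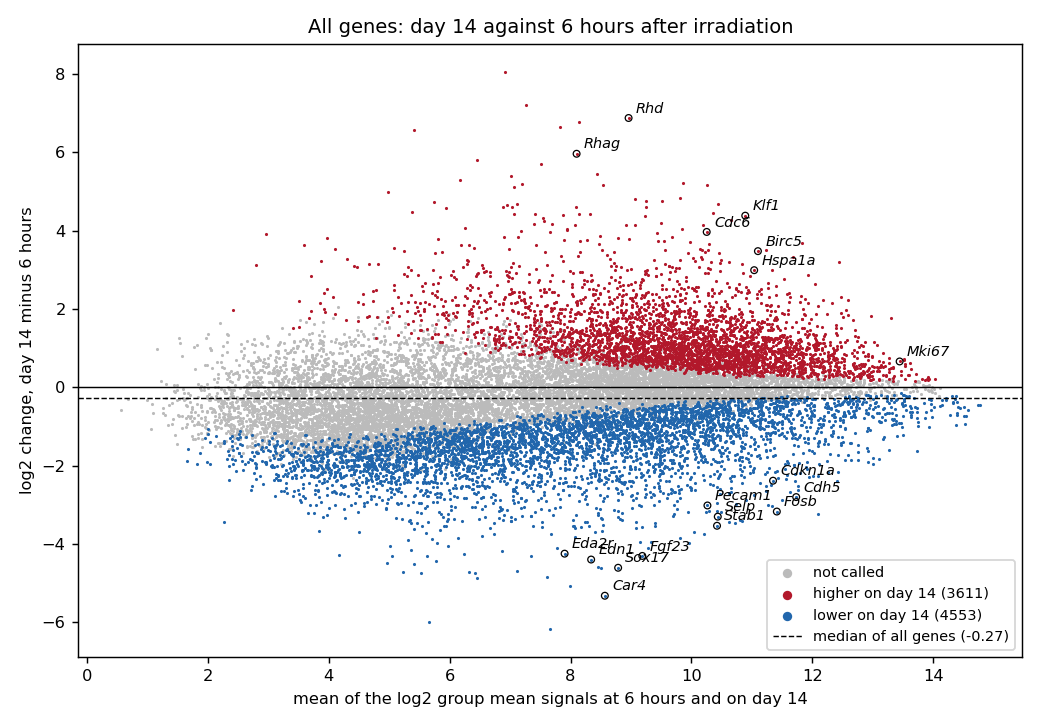
Change from 6 hours to day 14 (y axis, log2) against the mean of the group mean signals (x axis, log2) for 18193 genes, 1 point each, with genes called higher in red, called lower in blue and not called in grey. The dashed line marks the median of all genes at -0.27, and circles mark named genes, with Rhd at 6.87 near the top and Car4 at -5.32 near the bottom.

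The gene lists here and below were chosen with earlier results of these data known, so their counts describe the listed genes only. Over all genes 19.8% were called higher and 25% lower. Genes of red cell precursors were among those with the largest rises. Of 26 erythroid genes measured, 22 were higher on day 14 and 1 was lower, with a median change of 2.99 against -0.27 over all genes. The list's mean log2 signal ranged from 7.887 to 8.385 on the 6-hour arrays and from 11.25 to 11.51 on those of day 14. In RNA from bulk samples, fewer cells of a type and less RNA per cell cannot be told apart, and this holds for every list below. The gene called lower was Aqp1, a water channel of red cells and endothelium, at -0.26, which was 0.39 with arrays centred. Hba-a1, an alpha globin, was at or under the background on every day 14 array in the probe set with its name alone, and 5 further listed genes, the adult beta globins among them, had no such probe set.

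Klf1 encodes the transcription factor that switches on globin and red cell membrane genes. Its signal was 592, 232, 264, 474 and 590 on the 6-hour arrays and 9225, 8201, 8601, 8374 and 7361 on those of day 14. Every day 14 array was far brighter than every 6-hour array, and the change was 4.38 ± 0.23 (adjusted p = 4.6e-14). Against the non-irradiated mean of 5693, the 6-hour group differed by -3.83 and the day 14 group by 0.55.

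Rhd and Rhag, which form the Rh complex of the red cell membrane, were dim at 6 hours. Rhd read 122.6, 35.9, 26.4, 80.0 and 7.0 at 6 hours and 4639, 4362, 4869, 4213 and 4315 on day 14. Rhag read 27.7, 93.0, 22.3, 40.1 and 8.95 and then 1479, 2188, 1754, 1853 and 2277. The groups were far apart for both, with changes of 6.87 ± 0.55 (adjusted p = 1.34e-10) and 5.96 ± 0.43 (adjusted p = 2.71e-11). Some of their 6-hour arrays lay under the background, so the size of these changes is uncertain.

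Fn3k, which encodes a kinase that removes sugars from glycated proteins, had all 5 of its 6-hour arrays at background, between 2.43 and 21.4. On day 14 it read 2031, 1729, 1534, 1814 and 1526, at least 41.2-fold higher, and its probe sets gave 5.27 to 8.05. The same held for Tac2, the precursor of neurokinin B (at least 38.7-fold), the aldehyde dehydrogenase Aldh1a7 (at least 43.3-fold) and the long non-coding RNA gene Redrum (at least 9.86-fold). The 10 largest rises under the rule for named genes also held Btnl10, Apol8, Tlcd4 and Phyhip, with changes from 5.40 for Phyhip to 6.78 for Btnl10. Some 6-hour arrays of these 4 genes lay at or under the background too, so their sizes are uncertain. All 10 had a non-irradiated mean between 166 (Redrum) and 2196 (Rhd). With the 3' minus 5' covariate the call of Tlcd4, a gene of a TLC-domain membrane protein, was lost (2.67, adjusted p = 0.115).

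The bases before the start of Rhd are shown because the erythroid factor GATA1 is known to bind GATA sequences such as AGATAA, which this window was chosen to hold. Sequences here and below come from RefSeq (build GRCm38.p6), run 5′ to 3′ along the gene and end at the base before the annotated start unless stated, with matches in capitals. A match describes the letters and is no measured binding site.
Rhd (chr4:134864416-134864535, plus strand): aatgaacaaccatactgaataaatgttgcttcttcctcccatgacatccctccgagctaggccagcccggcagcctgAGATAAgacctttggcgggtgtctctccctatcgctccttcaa
Gata1 itself, named after its value was seen, went from 366 ± 148 to 2141 ± 179 (change 2.63 ± 0.21, adjusted p = 1.35e-10). AGATAA on either strand occurred before 11.4% of 27025 genes. Only 21 of 31 listed erythroid genes had a promoter in the table, too few for a count over the list.

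Genes of haem synthesis and iron transport moved with them. Of 23 measured, 20 were higher and 1 was lower, and the median change was 2.15. Blvrb, a biliverdin and flavin reductase abundant in red cells, read 511, 316, 432, 286 and 297 at 6 hours and 7848, 6861, 7010, 6914 and 6225 on day 14. No array of one group came near the other, and the change was 4.27 ± 0.16 (adjusted p = 8.48e-17). Uros, which closes the ring of the haem precursor, changed by 3.73 ± 0.41 (adjusted p = 3.72e-08) and the mitochondrial transporter Abcb10 by 3.54 ± 0.18 (adjusted p = 3.66e-14; probe sets from 2.25 to 4.73). The 1 lower gene, Fth1, the heavy chain of the iron store ferritin, was at -0.22 and became 0.43 with arrays centred.

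Genes of cell division were higher on day 14. All 30 mitosis genes measured were called higher, with a median of 2.04, and so were 33 of 34 genes of DNA replication, with a median of 2.10. For the mitosis list 30 of 30 members were higher on day 14 without overlap of the groups, against 13.1% of all genes. Orc1, a subunit of the complex that marks replication origins, was the 1 gene of replication not called, at 0.25 (adjusted p = 0.707), and its probe sets ranged from 0.25 to 3.23.

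Birc5, or survivin, holds mitotic kinases at the centromere. It read 499, 758, 713, 770 and 564 at 6 hours and 8037, 7828, 7197, 7069 and 6269 on day 14. Its change was 3.48 ± 0.14 (adjusted p = 2.47e-16), with a gap between the groups many times their spread. Ccnb2, a cyclin of entry into mitosis, went from 525 ± 126 to 4718 ± 301 (change 3.2 ± 0.15, adjusted p = 5.4e-15). The kinetochore gene Ndc80 changed by 3.28 ± 0.61 (adjusted p = 9.36e-05) from 6-hour arrays that ranged from 7.53 to 346.

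Cdc6 loads the replicative helicase onto DNA. Its 6-hour arrays read 267, 297, 316, 457 and 224 and its day 14 arrays 4804, 4944, 4854, 4579 and 4584. The change of 3.96 ± 0.16 (adjusted p = 4.36e-16) was the largest of the replication list. Gins1, part of the active helicase, followed at 3.32 ± 0.28 and the thymidine kinase Tk1 at 3.22 ± 0.28 (adjusted p = 3.1e-10 and 6.73e-10). A second probe set of Gins1 gave 1.27.

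Mki67, the usual mark of cycling cells, moved far less than the genes above. It read 9142, 8075, 9832, 7897 and 9390 at 6 hours and 15820, 13920, 14320, 14030 and 11960 on day 14. The groups did not overlap and the change was 0.66 ± 0.08 (adjusted p = 1.09e-07), the smallest of the 30 mitosis genes. Against the non-irradiated mean of 18050 the groups stood at -1.03 and -0.37, and Birc5 stood at -2.59 and 0.89 against its own.

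The promoter of Ccnb2 is shown because CCAAT boxes, bound by NF-Y, are known to drive mitotic cyclins. It holds 3 matches on either strand within 120 bases.
Ccnb2 (chr9:70421555-70421674, minus strand): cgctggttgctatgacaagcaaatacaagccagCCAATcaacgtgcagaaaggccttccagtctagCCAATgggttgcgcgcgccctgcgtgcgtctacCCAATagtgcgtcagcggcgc
In the 250 bases before the start, CCAAT on either strand occurred in 21 of 28 mitosis genes with a promoter (75%) and in 17 of 29 replication genes (58.6%), against 37.5% of 27025 genes. It also occurred in 22 of 28 genes of the unfolded protein list (78.6%), whose median change was 0.04, so the motif is not particular to the genes that rose. TTTGAA, the core of the cell cycle element CHR, occurred in 9 of 28 mitosis genes (32.1%) against 18.3% of all. TTCCCGCC, an E2F element, was present in 3 of 29 replication genes (10.3%) and 0 of 28 mitosis genes, against 2.13% of all. Of 25 niche genes, whose list had a median change of -0.71, 7 held TTTGAA (28%). Of 25 ribosome biogenesis genes 2 held TTCCCGCC (8%). In some other lists these shares were 0%, and neither motif was particular to the cell cycle lists. Both strands were searched for each of 14 motifs, which were counted separately and may share end bases.

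Genes of homologous recombination and the Fanconi pathway, which mend broken and crosslinked DNA during replication, were also higher. Of 22 measured, 17 were called higher and 0 lower (median 1.60). For 9 of the 22, day 14 lay above 6 hours without overlap, against 13.1% of all genes. Brca1 went from 369.5 ± 189 to 1872 ± 146 (change 2.52 ± 0.28, adjusted p = 4.14e-08), and its 4 probe sets ranged from 1.27 to 4.04. Bard1, the partner of Brca1, changed by 3.62 ± 0.46 (adjusted p = 4.45e-07), a call that was lost with the 3' minus 5' covariate (1.2, adjusted p = 0.236). Rad54b, a motor protein of strand exchange, had overlapping groups and changed by 2.93 ± 0.87 (adjusted p = 0.00759). For both Bard1 and Rad54b only 2 of the 6-hour arrays lay above the background.

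The levels of the erythroid and cell cycle lists rose on the same 5 arrays, whose median signal and 3' minus 5' difference were also lower. What part any of these had in the others was not tested.

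**Figure D3:**
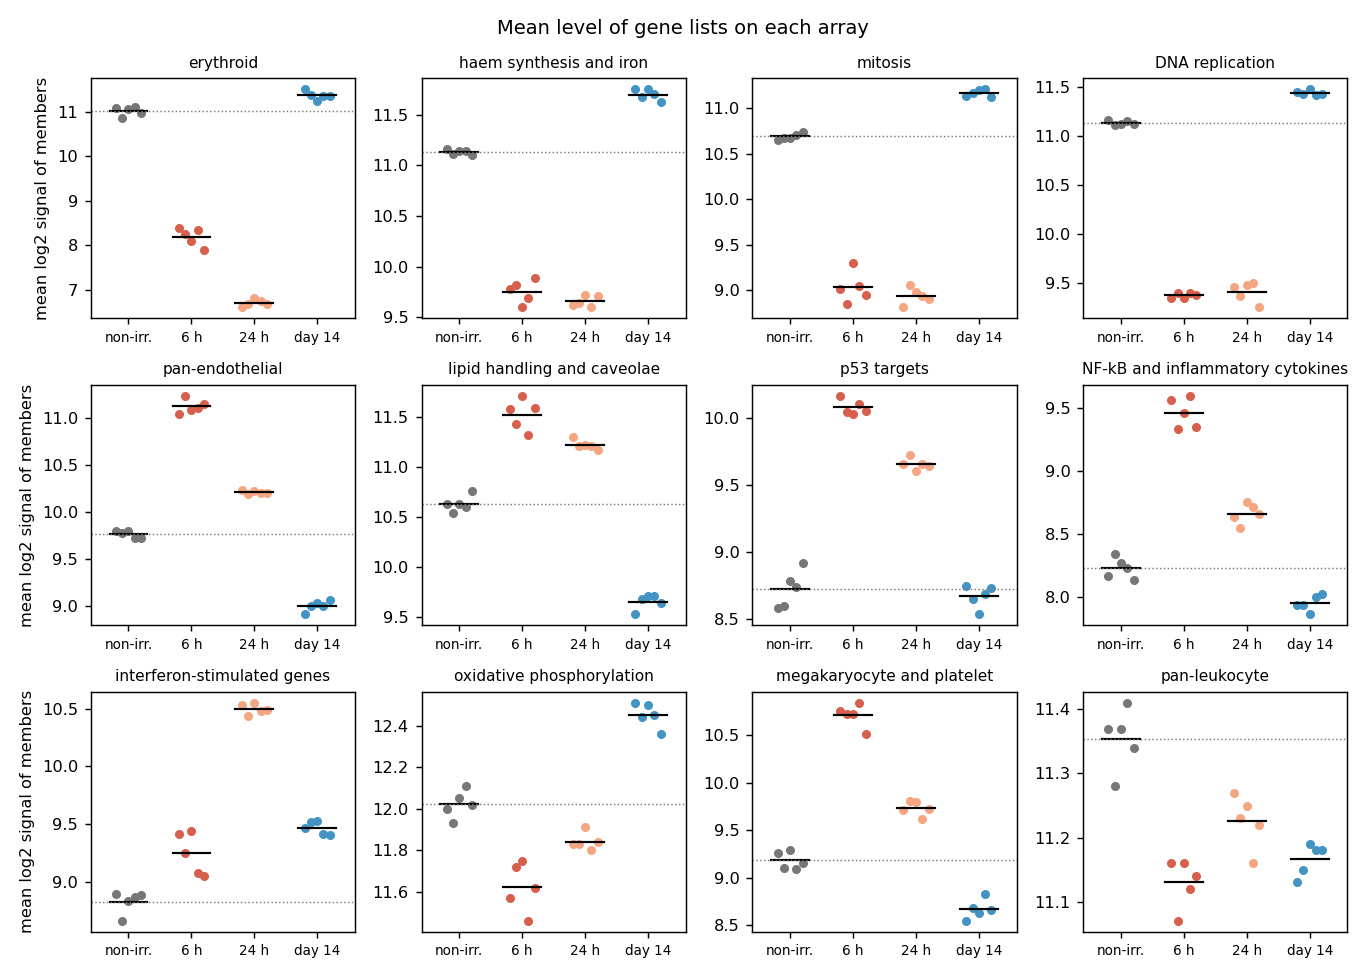
Mean log2 signal of the members of 12 gene lists on each array (points) with the group mean (bar) for the non-irradiated, 6-hour, 24-hour and day 14 groups of 5 arrays; the dotted line is the non-irradiated mean. For the erythroid list the 6-hour arrays lie between 7.887 and 8.385 and the day 14 arrays between 11.25 and 11.51, while pan-endothelial means lie between 11.04 and 11.23 at 6 hours and between 8.916 and 9.061 on day 14.

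Targets of p53 were lower on day 14. Of 35 measured, 28 were called lower and 2 higher, with a median of -1.30, and with arrays centred 18 were lower and 3 higher (median -0.65). Against the non-irradiated arrays the members' median was 1.13 at 6 hours and -0.0024 on day 14. Both values are on the deposited scale, so a return to the non-irradiated level cannot be read from them. Ppm1d, the phosphatase that turns p53 off, and Triap1, an inhibitor of apoptosis, were the 2 higher genes, at 1.24 and 1.42, and were named after their values were seen.

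Cdkn1a encodes p21, the inhibitor of cyclin-dependent kinases that arrests the cycle. Its 6-hour arrays read 6232, 5236, 6030, 6176 and 6169 and its day 14 arrays 1083, 1157, 1082, 1243 and 1142. The groups were tight and well apart, and the change was -2.38 ± 0.10 (adjusted p = 4.29e-16). Its non-irradiated mean was 943, from which the groups differed by 2.66 at 6 hours and 0.28 on day 14. Mdm2, the ligase that degrades p53, read 3846, 4045, 3429, 4763 and 3654 and then 1756, 1864, 1739, 1920 and 1683. Its groups did not overlap, and the change was -1.13 ± 0.12 (adjusted p = 1.52e-08), with probe sets from -2.52 to -0.58.

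The largest falls of the list were those of death receptors. Eda2r, a receptor of the tumour necrosis factor family, read 1035, 1818, 754, 906 and 582.5 at 6 hours and 43.2, 33.4, 26.0, 99.6 and 73.2 on day 14. All 6-hour arrays lay well above those of day 14, and the change was -4.25 ± 0.48 (adjusted p = 6.89e-08). Tnfrsf10b, the TRAIL receptor, changed by -3.58 ± 0.31 and Fas by -3.14 ± 0.32 (adjusted p = 4.73e-10 and 1.22e-08). Fas was 1.70 above the non-irradiated arrays at 6 hours and stood at -1.45 against them on day 14.

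Inflammatory cytokines and the genes that NF-kB switches on were lower as well. Of 28 measured, 22 were called lower and 1 higher (median -1.75; 18 and 3 with arrays centred). Cxcl1, which draws neutrophils, read 13190, 11580, 13320, 9379 and 15440 at 6 hours and 2265, 2473, 2263, 2652 and 2127 on day 14. Its 6-hour signals were several times those of any day 14 array, and the change was -2.40 ± 0.13 (adjusted p = 1.1e-13). Day 14 lay 0.19 from the non-irradiated mean of 2078. Ccl4, a chemokine of macrophages and T cells, changed by -3.36 ± 0.35 (adjusted p = 1.35e-08) and Cxcl5, another attractant of neutrophils, by -2.34 ± 0.52 (adjusted p = 0.000654), a call lost with the 3' minus 5' covariate (-1.5, adjusted p = 0.302). The 1 higher member was Cxcl9, a chemokine that interferon-gamma induces, at 0.85 ± 0.13, named after its value was seen.

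Adhesion molecules that catch leukocytes had 11 of 14 members lower and 0 higher (median -1.84; 8 lower and 2 higher with arrays centred). Selp, or P-selectin, which endothelium and platelets store in granules, read 4256, 2792, 6038, 4522 and 4370 at 6 hours and 370.3, 376, 454, 494 and 483 on day 14. E-selectin, Sele, read 3261, 2578, 2442, 2108 and 2246 and then 235, 227, 419, 364 and 249. Both selectins had 6-hour arrays far above all day 14 arrays, with changes of -3.30 ± 0.21 and -3.10 ± 0.22 (adjusted p = 1.31e-12 and 1.32e-11). Jam2, of endothelial junctions, changed by -2.39 ± 0.17 (adjusted p = 1.32e-11).

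Windows before these genes are given because NF-kB is known to act at the promoters of Cxcl1 and the selectins. They were chosen for matches on either strand to GGGA followed, after 4 free bases, by CC, a form of the kB site. The Sele window begins 165 bases before the start and ends 46 before it.
Cxcl1 (chr5:90891125-90891244, plus strand): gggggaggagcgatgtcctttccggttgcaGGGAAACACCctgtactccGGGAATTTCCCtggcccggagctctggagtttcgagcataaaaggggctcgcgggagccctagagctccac
Selp (chr1:164115144-164115263, plus strand): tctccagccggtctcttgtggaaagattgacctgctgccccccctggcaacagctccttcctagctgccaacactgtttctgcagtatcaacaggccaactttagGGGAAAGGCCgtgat
Sele (chr1:164048069-164048188, plus strand): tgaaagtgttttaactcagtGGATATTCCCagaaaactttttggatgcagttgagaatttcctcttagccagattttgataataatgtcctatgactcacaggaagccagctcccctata
Overlapping matches on both strands join in 1 run of capitals in Cxcl1. The motif occurs in 19.7% of the 27025 genes, and 20 of 29 listed cytokine genes had a promoter in the table, too few for a count over the list.

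Immediate early genes, the transcription factors that cells switch on within minutes of a stimulus or of being handled, had 24 of 26 members lower and 1 higher (median -1.2; 16 and 2 with arrays centred). Fosb, a subunit of AP-1, read 8236, 7938, 8996, 7891 and 7713 at 6 hours and 718, 1064, 971, 877 and 923 on day 14. Its groups were tight and far apart, with a change of -3.17 ± 0.10 (adjusted p = 4.73e-18). Against its non-irradiated mean of 4323, Fosb stood at 0.92 at 6 hours and -2.25 on day 14. Maff, a small Maf factor, changed by -2.68 ± 0.18 and Atf3, a stress-induced repressor, by -2.40 ± 0.23 (adjusted p = 3.88e-12 and 2.63e-09). The higher member, Egr2, was at 1.24 ± 0.28 and was named after its value was seen.

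**Figure D4:**
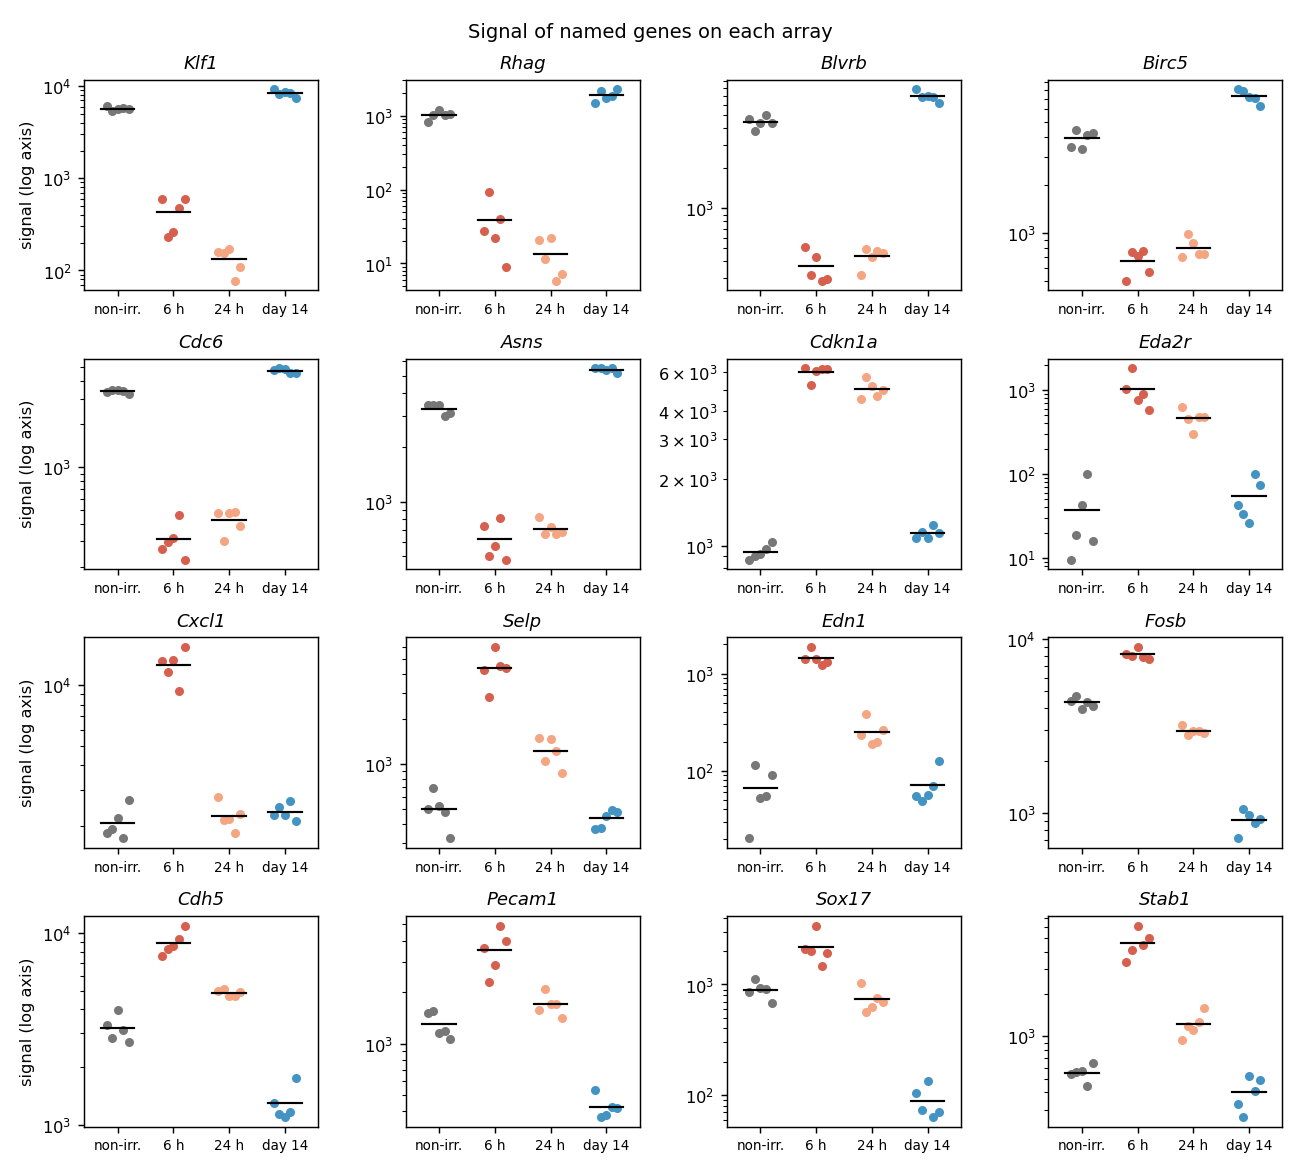
Signal (log axis) of 16 named genes on each array (points) with the group mean (bar), for the non-irradiated, 6-hour, 24-hour and day 14 groups of 5 arrays. Genes of red cells and division and the asparagine synthetase gene Asns (top 6 panels) are low at 6 hours, with Klf1 at a mean of 430.3 against 8353 on day 14. The others are high at 6 hours, with Cdh5 at 8954 against 1293.

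Endothelial genes were lower on day 14 almost throughout. Of 30 pan-endothelial genes, 28 were called lower and 1 higher, with a median of -2.20, and 26 were still lower with arrays centred (median -1.55). The list's mean log2 signal was 11.04 to 11.23 on the 6-hour arrays and 8.916 to 9.061 on those of day 14. Over the same arrays the leukocyte marker mean was 11.13 to 11.19 on day 14 and 11.07 to 11.16 at 6 hours, and the erythroid mean rose as given above. The part of other cells' RNA in the endothelial result was not tested. The 1 higher gene was Tal1, which red cell precursors also express, at 1.73 ± 0.22, and Calcrl, a receptor for adrenomedullin, was not called (-0.28, adjusted p = 0.268; 0.37 with arrays centred), with probe sets from -2.50 to -0.28.

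Cdh5, the gene of the protein by which the cells are named, read 7631, 8328, 8560, 9309 and 10940 at 6 hours and 1298, 1144, 1094, 1172 and 1757 on day 14. The lowest 6-hour array was far above the highest of day 14, and the change was -2.80 ± 0.12 (adjusted p = 2.09e-15). Relative to the non-irradiated mean of 3186, Cdh5 was at 1.49 at 6 hours and at -1.31 on day 14. Pecam1, or CD31, another junction protein, read 3623, 2300, 2886, 4899 and 4002 and then 534, 369.6, 383, 425 and 419. Its groups did not overlap either (change -3.02 ± 0.18, adjusted p = 3.84e-13), and its day 14 level was -1.60 against the non-irradiated arrays.

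Sox17, a transcription factor of arterial endothelium, is given by the brighter of its probe sets, and the other gave -2.82. It read 2094, 1999, 3393, 1479 and 1918 at 6 hours and 104, 72.7, 134, 62.9 and 69.7 on day 14. The change was -4.61 ± 0.24 (adjusted p = 3.48e-14), and all day 14 arrays were dimmer than every 6-hour array. Rasip1, needed to open vessel lumens, changed by -3.75 ± 0.21 and Sox7, a relative of Sox17, by -3.54 ± 0.30 (adjusted p = 1.54e-13 and 5.26e-10).

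Some of the 10 largest falls, taken from genes that passed the rule for named genes, were further genes known from vessels. Car4, a carbonic anhydrase on the surface of capillary endothelium, read 1169, 2910, 1854, 2135 and 2321 at 6 hours and 180.4, 27.5, 26.8, 81.4 and 25.1 on day 14, a change of -5.32 ± 0.41 (adjusted p = 8.6e-11). Bcam, a laminin receptor, was at least 8.88-fold lower and Vwa3a at least 7.22-fold, since their day 14 arrays were all at background. Tlcd3b (-6.17), Ttll7, Vsig2, Matn1 and Dnm3 were also among the 10, and some of their day 14 arrays lay at or under the background. The 6-hour means of the 10 differed from the non-irradiated ones by 1.16 (Ttll7) to 3.22 (Matn1). Probe sets disagreed on the size for Tlcd3b (-6.17 to -1.54), Vwa3a (-4.72 to -0.65), Dnm3 (-4.68 to -1.77) and Car4 (-5.32 to -3.80).

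Sinusoidal genes had 16 of 19 members lower and 0 higher (median -1.47; 11 lower and 2 higher with arrays centred). Stab1, a scavenger receptor of sinusoids, read 3415, 4158, 6127, 4483 and 5053 at 6 hours and 332, 266, 523, 412 and 491 on day 14. Its change was -3.53 ± 0.19 (adjusted p = 8e-14), and day 14 differed from the non-irradiated mean of 550.2 by -0.47. Its relative Stab2 changed by -2.24 ± 0.15 and the fatty acid receptor Cd36 by -2.66 ± 0.12 (adjusted p = 3.77e-12 and 2.34e-15). Over the list, the median against the non-irradiated group was 1.36 at 6 hours and -0.07 on day 14, whereas for pan-endothelial genes it was 1.46 and -0.76. These values are on the deposited scale, and where day 14 stood against the non-irradiated level depends on the scaling.

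The arterial list was less uniform, with 13 of 20 members lower and 4 higher (median -1.11; 9 and 4 with arrays centred). Sema3g, a semaphorin of arteries, changed by -3.60 ± 0.27 (adjusted p = 4.08e-11). Notch4, an endothelial Notch receptor, changed by -3.39 ± 0.27 (adjusted p = 9.4e-11), with probe sets from -3.52 to -0.92. The 4 higher genes, named after their values were seen, were Hey2, a Notch target, at 2.63 ± 0.56, the kinase gene Bmx at 2.40 ± 0.53, the Cxcl12 receptor Cxcr4 at 0.42 ± 0.08 and the elastic fibre gene Fbln5 at 0.37 ± 0.11. Hey2 and Bmx were dim, at 119 ± 39.6 and 104 ± 50.7 on day 14.

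Genes of vessel tone and coagulation had 14 of 19 members lower and 0 higher (median -1.29). Edn1, the precursor of the vasoconstrictor endothelin-1, read 1420, 1877, 1409, 1214 and 1327 at 6 hours and 55.5, 49.2, 55.8, 70.2 and 127 on day 14. The groups lay far apart, and the change of -4.40 ± 0.37 (adjusted p = 3.54e-10) brought day 14 to 0.23 from the non-irradiated level. Ednrb, an endothelin receptor, changed by -3.34 ± 0.28 and Nos3, the endothelial nitric oxide synthase, by -3.32 ± 0.32 (adjusted p = 3.73e-10 and 4.15e-09). Against the non-irradiated arrays Nos3 stood at 0.46 at 6 hours and -2.86 on day 14.

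In the list of VEGF signalling and sprouting, 25 of 30 genes were lower and 2 higher (median -1.38; 19 and 4 with arrays centred). Flt1, the VEGF receptor that also acts as a decoy, read 5100, 5145, 5017, 4654 and 6233 at 6 hours and 430.1, 484, 516, 457 and 502 on day 14, and no arrays overlapped (change -3.44 ± 0.11, adjusted p = 6.94e-18). Pdgfb, which recruits pericytes, changed by -3.06 ± 0.32 and the semaphorin Sema3f by -3.34 ± 0.60 (adjusted p = 1.51e-08 and 5.34e-05). The ligand Vegfa was not called, at 895 ± 215 and 876 ± 159.8 (-0.02 ± 0.17, adjusted p = 0.939), and was 0.63 (adjusted p = 0.00269) with arrays centred. Vegfb, a ligand of Flt1, and Cxcr4 were the 2 higher genes, at 1.38 ± 0.39 and 0.42 ± 0.08.

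All 20 genes of lipid handling and caveolae were lower, with a median of -1.77, and 15 were lower and 1 higher with arrays centred. Gpihbp1, which carries lipoprotein lipase to the vessel lumen, read 4529, 4264, 3790, 3575 and 4338 at 6 hours and 576, 438, 443, 438 and 419.6 on day 14. Its change was -3.15 ± 0.13 (adjusted p = 4.71e-16), with groups that did not overlap. Timp4, an inhibitor of metalloproteinases, changed by -3.39 ± 0.12 and Cav2, a coat protein of caveolae, by -3.15 ± 0.21 (adjusted p = 8.48e-17 and 5.33e-12).

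The factors by which vessels support blood cells did not move as 1 group. Of 33 measured, 18 were lower, 4 higher and 11 not called (median -0.71; 12 lower and 7 higher with arrays centred). Kitl read 2807, 3007, 3460, 3231 and 2352 at 6 hours and 3755, 3588, 3329, 3454 and 3226 on day 14. Its groups overlapped and it was not called (0.23 ± 0.10, adjusted p = 0.0569), though it was with arrays centred (0.88, adjusted p = 1.6e-06). Cxcl12 read 26150, 23660, 29500, 22400 and 28700 and then 20970, 17890, 18960, 18380 and 15550. It was called lower at -0.51 ± 0.09 (adjusted p = 3.81e-05), but its sign turned with arrays centred (0.14, adjusted p = 0.398).

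Fgf23, a hormone that makes the kidney excrete phosphate, had the largest change of the niche list. It read 1571, 2872, 1958, 3239 and 3270 at 6 hours and 189, 160.5, 86.5, 88.5 and 129 on day 14, with no overlap (change -4.30 ± 0.42, adjusted p = 5.88e-09). It remained 2.54 above its non-irradiated mean of 25.1 on day 14. Jag2, a Notch ligand, changed by -2.91 ± 0.30 (adjusted p = 1.28e-08). The 4 higher factors, named after their values were seen, were Il7 (0.94 ± 0.23), Mdk (0.55 ± 0.13), Igf1 (0.54 ± 0.16) and Bmp6 (0.32 ± 0.12). Il7 supports lymphocyte precursors and Igf1 is a growth factor.

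In the TGF-beta and BMP pathway 21 of 29 genes were lower and 1 was higher (median -0.95; 11 and 4 with arrays centred). Inhbb, a subunit of activin B, read 3619, 2559, 3337, 3580 and 3358 at 6 hours and 289.5, 246, 403, 147 and 142 on day 14. Its arrays did not overlap and the change was -3.84 ± 0.27 (adjusted p = 1.63e-11), while its other probe set gave -1.83. Skil, a repressor of Smad factors, changed by -1.84 ± 0.16 (adjusted p = 6.38e-10). The ligand Tgfb2 changed by -1.78 ± 0.37 (adjusted p = 0.000371), a call lost with the 3' minus 5' covariate (-1.11, adjusted p = 0.28).

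Basement membrane and matrix genes had 25 of 31 members lower and 1 higher (median -0.72), but only 11 lower and 4 higher with arrays centred (median -0.07). The laminin chain Lama5 changed by -2.77 ± 0.31 and Sparcl1, a matrix glycoprotein of vessels, by -2.43 ± 0.26 (adjusted p = 5.17e-08 and 2.61e-08), and the probe sets of Lama5 ranged from -2.77 to -0.90. Fbln2, a fibulin, changed by -2.73 ± 0.26 (adjusted p = 3.9e-09), and the probe set kept when cross-hybridizing ones were left out gave -0.62 (adjusted p = 0.64). Among fibrillar collagens, Col1a1 was at -0.71 (-0.06 and not called with arrays centred) and Col3a1, the 1 gene called higher, at 0.41, with probe sets from -0.23 to 0.41.

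Markers of the cells that wrap vessels were lower too. Smooth muscle genes had 15 of 20 members lower and 1 higher (median -1.45; 9 and 2 with arrays centred). Tagln, an actin-binding protein, went from 816 ± 239.8 to 112 ± 26.7 (change -2.84 ± 0.28, adjusted p = 6.68e-09), which is -0.04 from its non-irradiated level. Smtn, smoothelin, changed by -2.53 ± 0.22 (adjusted p = 6.49e-10). The pericyte proteoglycan gene Cspg4 changed by -3.10 ± 0.58 (adjusted p = 0.000102), a call lost with the 3' minus 5' covariate (-2.42, adjusted p = 0.13), and its other probe set gave -0.23. Only 2 of its day 14 arrays lay above the background, so the size is uncertain.

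Stromal and osteoblast genes had 15 of 21 members lower and 4 higher, with a median of -0.49 that turned to 0.16 with arrays centred, where 3 were lower and 8 higher. Nes, the filament protein nestin, went from 1190 ± 325 to 113 ± 16.2 (change -3.35 ± 0.22, adjusted p = 5.09e-12). Dpt, dermatopontin of the fibroblast matrix, went the other way, from 90.1 ± 14.6 to 715 ± 142 (2.96 ± 0.23, adjusted p = 8.56e-11). Dmp1, a matrix protein of osteocytes, changed by -1.87 ± 0.10 (adjusted p = 4.62e-14).

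**Figure D5:**
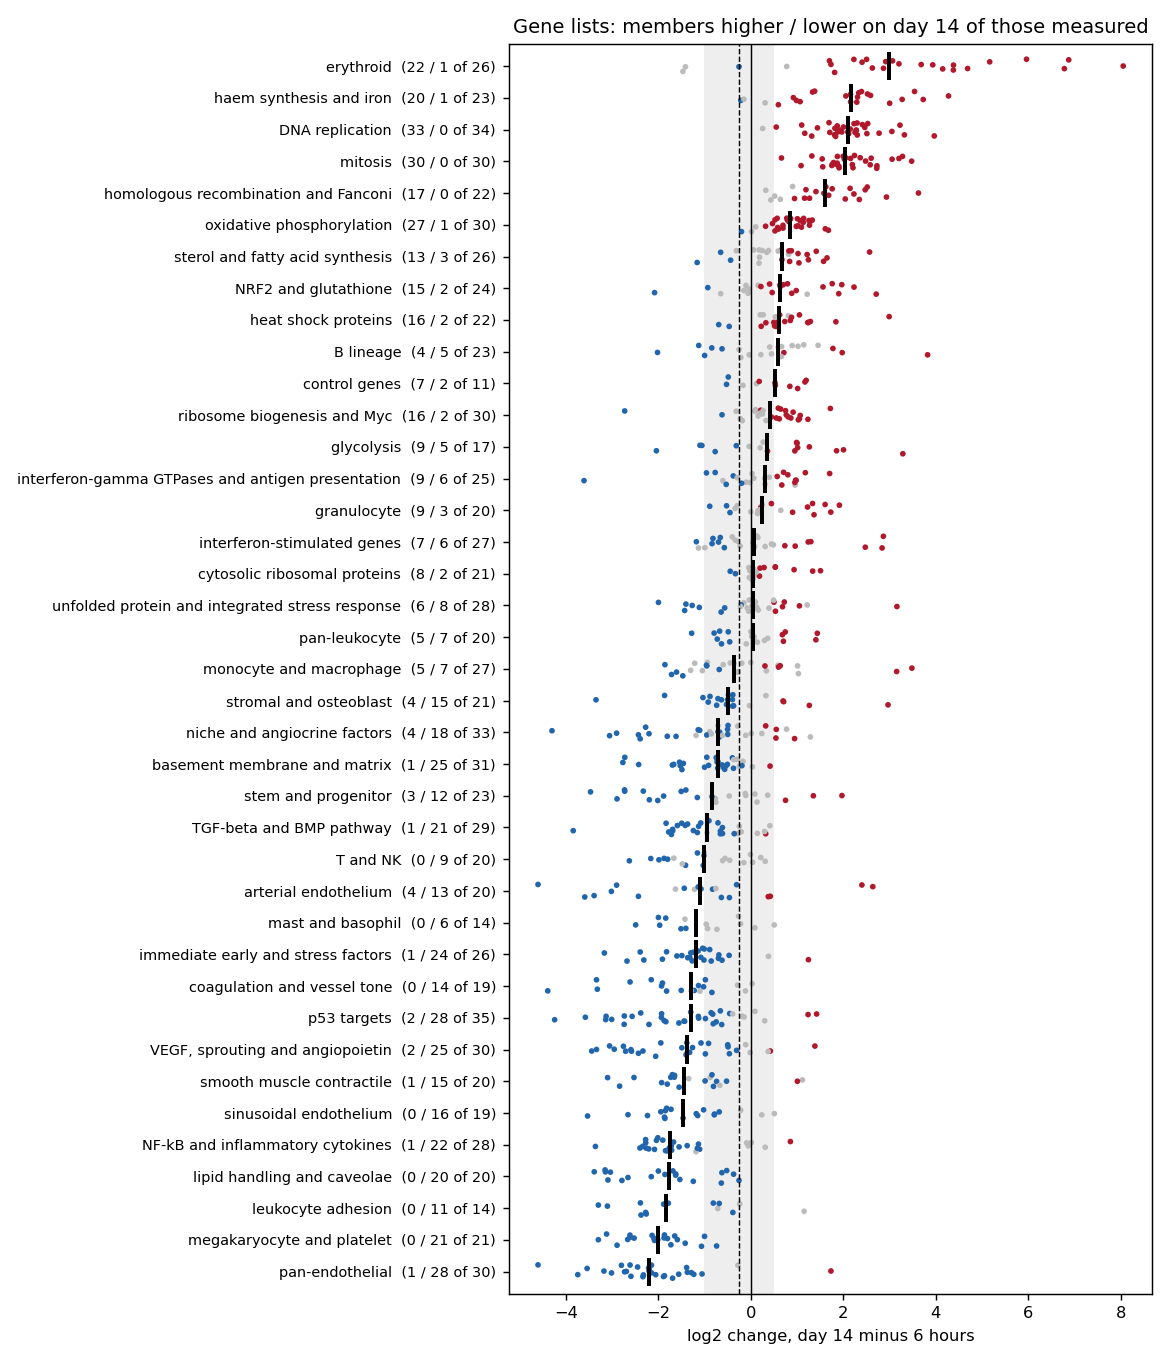
Change from 6 hours to day 14 (x axis, log2) of every measured member of 39 gene lists, with members called higher in red, called lower in blue and not called in grey, and the list median as a black bar. Numbers after a name are members higher / lower of those measured, the dashed line is the median of all genes (-0.27) and the shaded band their quartiles (-1.0 to 0.47). The erythroid median lies at 2.99 and the pan-endothelial one at -2.20.

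Interferon-stimulated genes, which cells switch on in defence against viruses and after DNA damage, were split. Of 27 measured, 7 were higher and 6 lower (median 0.06), shares near those over all genes, and with arrays centred 15 were higher and 0 lower. Against the non-irradiated arrays the list's median was 0.64 at 6 hours and 0.76 on day 14. Isg20, an exonuclease that degrades RNA, read 496, 400.2, 668, 869 and 1548 at 6 hours and 5644, 5131, 5332, 5012 and 4307 on day 14, with a change of 2.84 ± 0.23 (adjusted p = 1.32e-10). Oas3, which makes the signal for RNase L, read 141, 122, 214, 53.3 and 238 and then 792, 723, 727, 764 and 803 (2.47 ± 0.28, adjusted p = 7.2e-08). Neither gene's groups overlapped, and Cmpk2, a mitochondrial nucleotide kinase, changed by 2.86 ± 0.30 (adjusted p = 1.37e-08). At 6 hours these 3 genes differed from the non-irradiated arrays by -1.96, -1.33 and -1.66.

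The window before Oas3 is printed for its match to GAAA repeated after 2 free bases, the core of the element through which interferon acts on such genes, which was the ground for choosing it.
Oas3 (chr5:120777660-120777779, minus strand): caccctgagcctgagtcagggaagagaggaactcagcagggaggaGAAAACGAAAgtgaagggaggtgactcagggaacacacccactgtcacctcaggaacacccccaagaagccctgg
The motif occurs in 3.46% of the 27025 genes. Of the 30 listed interferon-stimulated genes 22 had a promoter in the table, too few for a count over the list.

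Genes that interferon-gamma induces and genes of antigen presentation had 9 of 25 members higher and 6 lower (median 0.30; 17 and 1 with arrays centred). The GTPases Irgm1 and Irgm2, which act on membranes of invading microbes, changed by 1.70 ± 0.36 and 1.18 ± 0.12 (adjusted p = 0.000411 and 1.18e-08). Ciita, the switch of class II antigen presentation, was lower at -3.61 ± 0.53 (adjusted p = 3.7e-06), but its probe sets ranged from -3.61 to -0.50 and the call was lost without cross-hybridizing ones (-0.50, adjusted p = 0.564). Only 1 day 14 array of Ciita lay above the background. The class II genes H2-Aa and H2-Ab1 were higher, at 0.71 and 0.95, with probe sets of H2-Aa from -0.11 to 1.36.

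Lists of other blood cells differed in their counts. Of 20 genes shared by leukocytes, 5 were higher and 7 lower (median 0.04; 13 and 0 with arrays centred), against 19.8% and 25% of all genes. Ptprc read 2900, 2404, 2750, 2158 and 3396 at 6 hours and 2421, 2818, 2824, 2870 and 2696 on day 14. These groups overlapped (0.02 ± 0.11, adjusted p = 0.909), a second probe set gave -1.94, and the sign changed in 7 alternatives of the fit. With arrays centred Ptprc was called higher (0.67, adjusted p = 0.000121). Rac2, a GTPase of leukocytes, changed by 1.44 ± 0.14 and Ikzf1, a lymphoid transcription factor, by 1.40 ± 0.12 (adjusted p = 8.74e-09 and 5.27e-10). Cytip, of activated lymphocytes, changed by -1.28 ± 0.28 (adjusted p = 0.000504) and lost its call with arrays centred (-0.63, adjusted p = 0.0621).

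Granulocyte genes had 9 of 20 members higher and 3 lower (median 0.23; 15 and 0 with arrays centred). The higher members included proteins that precursors pack into primary granules. Elane, neutrophil elastase, read 1077, 1483, 601, 1321 and 1427 at 6 hours and 3904, 3342, 4043, 3672 and 3725 on day 14, with no overlap (change 1.73 ± 0.16, adjusted p = 3.43e-09). Fcnb, a ficolin of granulocyte precursors, changed by 1.91 ± 0.19 (adjusted p = 5.19e-09). The 3 lower genes belong to mature cells and were named after their values were seen: Csf3r, S100a8 and S100a9, at -0.89, -0.53 and -0.45. With arrays centred S100a8 and S100a9 turned to 0.12 and 0.20, and Csf3r was -0.24 and not called. Gfi1, a repressor of granulocyte precursors, had overlapping groups (1.60 ± 0.35, adjusted p = 0.000484) and lost its call with the 3' minus 5' covariate (1.15, adjusted p = 0.231).

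Monocyte and macrophage genes had 5 of 27 members higher and 7 lower, shares near those over all genes (9 and 3 with arrays centred), with a median of -0.37 that turned to 0.28 with arrays centred. C1qc, a chain of the complement component that macrophages make, read 4.95, 7.83, 48.6, 3.83 and 2.46 at 6 hours and 149.5, 87.6, 109, 64.8 and 77.1 on day 14. C1qa was at background on all 6-hour arrays and at least 1.76-fold higher on day 14. The change of C1qc was 3.48 ± 0.72 (adjusted p = 0.00031), and only 1 of its 6-hour arrays lay above the background. Mrc1, the mannose receptor of macrophages and sinusoids, changed by -1.86 ± 0.15 (adjusted p = 1.33e-10).

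Lymphoid markers were dim. B lineage genes had 4 of 23 members higher and 5 lower (median 0.59), shares near those over all genes, and 10 higher and 1 lower with arrays centred (median 1.24). Rag1, of the recombinase of antigen receptors, was at background at 6 hours and at least 1.24-fold higher on day 14. Pou2af1, a B cell coactivator, changed by 1.97 ± 0.32 (adjusted p = 1.73e-05). The B cell receptor lectin Cd22 changed by -2.02 ± 0.46 (adjusted p = 0.000759), a call lost with the 3' minus 5' covariate (-2.12, adjusted p = 0.0926). T and NK genes had 9 of 20 lower and 0 higher (median -1.02), or 3 and 3 with arrays centred. Lat, an adaptor of the T cell receptor that platelets and mast cells also use, led them at -2.63 ± 0.30 (adjusted p = 8.34e-08), while Cd4 (-2.17) and Gzmb (-1.99) lost their calls with that covariate (adjusted p = 0.109 and 0.124). Only 1 day 14 array of Cd4 lay above the background.

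All 21 megakaryocyte and platelet genes measured were lower, with a median of -2.02, and 18 with arrays centred. The list shares Selp, Vwf, Thbs1 and Mylk with the vessel lists. Clec1b, the podoplanin receptor of platelets, read 2234, 1978, 2603, 2330 and 2634 at 6 hours and 262, 257, 272, 446 and 371 on day 14. Its change was -2.90 ± 0.23 (adjusted p = 8.56e-11), and all arrays of 6 hours were brighter. Gp6, the collagen receptor of platelets, changed by -3.12 ± 0.52 (adjusted p = 2.37e-05), with only 3 of its day 14 arrays above the background. Against the non-irradiated arrays the list's median was 1.52 at 6 hours and -0.40 on day 14.

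Stem and progenitor genes had 12 of 23 members lower and 3 higher (median -0.84; 10 and 7 with arrays centred). Fgd5 and Robo4, which blood stem cells share with endothelium, changed by -3.47 ± 0.24 and -2.73 ± 0.14 (adjusted p = 7.82e-12 and 5.56e-14). Flt3, a receptor of early lymphoid progenitors, changed by -2.90 ± 0.65 (adjusted p = 0.00074), from 6-hour arrays that ranged from 131 to 1564. The 3 higher genes were Gfi1b (1.97) and Lmo2 (1.35), which red cell precursors use, and Hoxa10 (0.75), named after their values were seen. Kit was not called (0.09, adjusted p = 0.786), but was with arrays centred (0.73, adjusted p = 0.0109). The probe sets of Hoxa10 ranged from -1.17 to 0.75.

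Mast cell and basophil genes had 6 of 14 members lower and 0 higher (median -1.19). Mcpt8, a protease of basophils, read 3655, 1943, 3642, 3657 and 2904 at 6 hours and 536, 536, 545, 599 and 512 on day 14. The change was -2.49 ± 0.18 (adjusted p = 2.95e-11) without overlap. Ms4a2, a chain of the IgE receptor, changed by -2.0 ± 0.22 (adjusted p = 4.96e-08). Cd200r3 was at background on day 14 and at least 2.46-fold lower, a call lost with the 3' minus 5' covariate (adjusted p = 0.216).

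Genes of energy metabolism were mostly higher. In oxidative phosphorylation 27 of 30 were called higher and 1 lower (median 0.83). Of the 30, 25 were higher without overlap of the groups, against 13.1% of all genes. Ndufs3 and Ndufa9, of respiratory complex I, changed by 1.68 ± 0.15 and 1.61 ± 0.15 (adjusted p = 1.13e-09 and 1.83e-09). Sdhd, of complex II, read 4122, 3932, 3233, 3478 and 2498 at 6 hours and 8535, 8572, 8486, 8501 and 8520 on day 14, with a change of 1.32 ± 0.18 (adjusted p = 8.61e-07). The lower gene, Uqcrb of complex III, was at -0.20 and turned to 0.45 with arrays centred, and its other probe set gave 1.32.

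In glycolysis 9 of 17 genes were higher and 5 lower, or 13 and 1 with arrays centred (median 0.36, and -0.29 without cross-hybridizing probe sets). Pgk1, phosphoglycerate kinase, changed by 1.01 ± 0.13 (adjusted p = 4.4e-07). The glucose transporter Slc2a1 went the other way, from 3881 ± 1358 to 901 ± 89.6 (-2.05 ± 0.18, adjusted p = 1.3e-09). Pdk1, which holds pyruvate back from the mitochondria, changed by 2.00 ± 0.37 (adjusted p = 8.75e-05), with probe sets from -0.12 to 2.00 and a call lost with the 3' minus 5' covariate (1.63, adjusted p = 0.109). Aldoc was dim, and its probe sets had opposite signs (-1.88 to 3.29).

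In sterol and fatty acid synthesis 13 of 26 genes were higher and 3 lower (median 0.66; 21 and 0 with arrays centred). Lss, lanosterol synthase, changed by 1.65 ± 0.33 and Nsdhl, a later enzyme of the pathway, by 1.57 ± 0.36 (adjusted p = 0.000219 and 9e-04), and both calls were lost with the 3' minus 5' covariate (1.54 and 0.19, adjusted p = 0.0887 and 0.856). Fdps, which makes farnesyl pyrophosphate, changed by 2.57 ± 0.25 in its brightest probe set and by -2.33 in the other.

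Antioxidant genes of the NRF2 and glutathione list had 15 of 24 members higher and 2 lower (median 0.63; 19 and 0 with arrays centred). Gclm, a subunit of the enzyme that limits glutathione synthesis, read 618, 452, 547, 549 and 495 at 6 hours and 3663, 2914, 3614, 3921 and 3312 on day 14. Its groups were well apart (2.71 ± 0.13, adjusted p = 5.81e-15). Prdx2, the main peroxiredoxin of red cells, changed by 2.23 ± 0.14 (adjusted p = 2.54e-12). Gsta3 was called lower at -2.08 (adjusted p = 0.00882), but its other probe set gave 1.07 and the call was lost in 5 alternatives, centring among them (-1.44, adjusted p = 0.0667).

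In the stress response of the endoplasmic reticulum and of amino acid lack 6 of 28 genes were higher and 8 lower, shares near those over all genes, and 19 and 3 with arrays centred (median 0.04). Asns, asparagine synthetase, read 731, 502, 570.4, 809.7 and 478 at 6 hours and 5504, 5484, 5353, 5508 and 5168 on day 14. The groups did not overlap, with a change of 3.16 ± 0.13 (adjusted p = 7.83e-16). Sesn2, a sestrin that p53 also induces, changed by -1.43 ± 0.24 (adjusted p = 1.98e-05), a call lost with the 3' minus 5' covariate (-0.35, adjusted p = 0.555). Fgf21, a stress hormone, was at background on day 14, at least 1.78-fold lower, and lost its call with centring (adjusted p = 0.0648), quantiles (0.0831) and that covariate (0.197).

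Heat shock proteins had 16 of 22 members higher and 2 lower (median 0.60). Hspa1a, the inducible Hsp70, read 678, 807, 783, 795 and 669 at 6 hours and 6139, 5700, 6044, 5759 and 5930 on day 14. The change was 2.99 ± 0.16 (adjusted p = 4.6e-14), and day 14 was 2.49 above the non-irradiated mean of 1073 while 6 hours was at -0.49. Its near-identical copy Hspa1b, which may share signal with it, changed by 1.84 ± 0.15, and the cochaperone Stip1 by 1.29 ± 0.19 (adjusted p = 1.24e-10 and 4.39e-06).

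Ribosome biogenesis genes had 16 of 30 members higher and 2 lower (median 0.42; 25 and 1 with arrays centred). Nhp2, of the particles that modify ribosomal RNA, changed by 1.72 ± 0.12 (adjusted p = 1.72e-11). Polr1a, of RNA polymerase I, changed by 1.23 ± 0.34 (adjusted p = 0.00428), with overlapping groups, probe sets from -1.51 to 1.23 and a call lost with their mean (0.03, adjusted p = 0.944). Mycn, a Myc factor, changed by -2.73 ± 0.39 (adjusted p = 2.62e-06), with probe sets from -2.83 to -0.30. Cytosolic ribosomal proteins had 8 of 21 higher and 2 lower (median 0.05), and 20 were higher with arrays centred. Rps2, the largest change among them, was at 1.5 ± 0.22 (adjusted p = 4.76e-06), while Rpl14 and Rps6 (1.33 and 0.93) lost their calls with the 3' minus 5' covariate (adjusted p = 0.118 and 0.126).

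Genes often used as controls were not level between the groups. Of 11 measured, 7 were called higher and 2 lower (median 0.52; 9 and 0 with arrays centred). Hprt, of purine salvage, went from 1099 ± 364 to 2418 ± 94.8 (1.19 ± 0.16, adjusted p = 1.06e-06). Actb and Ywhaz were the 2 lower genes, at -0.49 and -0.53, which became 0.16 and 0.12 with arrays centred. Tbp, the TATA-binding protein gene, changed by 1.17 ± 0.33 (adjusted p = 0.00489) in its brightest probe set, with overlapping groups, and by 0.26 (adjusted p = 0.814) without cross-hybridizing ones.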

How the data were processed

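The 20 arrays were described by their labels as RNA of bone marrow VE-cadherin+ cells, amplified with the Nugen Ovation system. The authors deposited intensity values on a linear scale, 1 per probe set, and Affymetrix Expression Console and Transcriptome Analysis Console are named, without versions, per the submitters' processing notes. The summarization method is not given in the sources used here. Of 45101 probe sets, 34945 carried 1 gene symbol, 932 several and 9160 none, and 64 were controls. The brightest probe set over all arrays stood for each of 18193 genes.

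Log2(signal + 1) was fitted with limma 3.58.1 (R 4.3.3; lmFit, eBayes with an intensity trend) on 4 groups of 5 arrays, with Benjamini-Hochberg adjustment and a threshold of 0.05. The script was tested on simulated data. Named genes are the 10 largest rises and falls among called genes whose groups did not overlap, that kept their call with arrays centred and whose higher group exceeded the background on all 5 arrays (predicted genes, clones and receptor segments left out), up to 3 called members with the largest change in each list (the smallest p where fewer than 2 were called), and Cdkn1a, Mdm2, Mki67, Cdh5, Pecam1, Ptprc, Kitl, Cxcl12 and Klf1. Other genes named were chosen after their values were seen. The background level was chosen after the data were seen. The members and lists were chosen with earlier results of these data known. Alternatives covered scaling, pseudocount, probe set choice, filters, weights, covariate, block and leaving out each array. Plots come from matplotlib 3.10.9 under Python 3.11.15.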

Additional observations from a re-analysis of the deposited data

Results flagged for a closer look

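In 13 of 267 groups of 5 gene signals and 2 of 78 groups of list means, 1 array lay far from the other 4 by Dixon's criterion. Chance marks about 1 group in 20.

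On day 14, replicate 1 was the lowest for Tlcd3b (3.08, others 20.6 to 33.3), Sema3g (78.3, others 168 to 187) and Sparcl1 (72.2, others 139.9 to 177.5), and the highest for Gpihbp1 (575.5, others 419.6 to 442.7). It also had the lowest TGF-beta and BMP list mean (9.445, others 9.515 to 9.537, log2). Replicate 3 of day 14 was the lowest for Fbln2 (57.7, others 90.3 to 93.05).

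At 6 hours, replicate 2 was the lowest for Inhbb (2559, others 3337 to 3619), Smtn (706.5, others 1263 to 1474), Cd4 (47.7, others 94.3 to 109.4) and Cdkn1a (5236, others 6030 to 6232). Replicate 4 was the lowest for Gsta3 (16.6, others 48.6 to 74.6) and Pdk1 (69.7, others 412 to 656). Replicate 3 was the lowest for Lama5 (403, others 792 to 1030) and for the granulocyte list mean (10.81, others 10.91 to 10.95, log2). Replicate 5 was the highest for Ednrb (2119, others 810.5 to 1037).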

How the results depend on the processing

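Higher calls numbered 3611 and lower calls 4553. They became 6650 and 1756 with arrays centred, 2109 and 2289 with the 3' minus 5' covariate, and 2002 and 3307 at 2-fold or more. Lower calls became 2880 after quantile normalization and 3004 without genes under the 40th percentile. That filter tested fewer genes and left 3483 higher calls, so it removed mainly lower ones. Leaving out 1 array gave 3344 to 3646 higher and 4006 to 4619 lower. Under the other alternatives run, both counts stayed within 1.5 times. Equal replicate numbers did not pair the arrays (correlations -0.020 to 0.022), and a replicate block gave 3588 and 4422. Of 39 list medians 19 were positive, and 16 to 21 under the alternatives.

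List medians changed sign as follows. With arrays centred the stromal median was 0.16 and the monocyte and macrophage median 0.28. With quantiles the interferon-stimulated median was -0.0087 (-0.011 without 6-hour replicate 3), pan-leukocyte was -0.079 and the unfolded protein list -0.070, which was -0.071 with the covariate and which ranged from -0.060 (without 6-hour replicate 4) to 0.069 (without day 14 replicate 2) over arrays left out, below 0 also without 6-hour replicates 1 and 3 and day 14 replicates 4 and 5. With the mean of probe sets interferon-gamma was -0.017 and pan-leukocyte -0.044. Without cross-hybridizing probe sets pan-leukocyte was -0.052 and glycolysis -0.29. T and NK was 0.030 without genes under the 40th percentile. Among genes, Cxcl12 became 0.14 with arrays centred and Aldoc -1.88 without cross-hybridizing probe sets. Ptprc became -0.11 (quantiles), -0.96 (mean of probe sets), -1.94 (cross-hybridizing left out), -0.17 (covariate), and -0.023, -0.062 and -0.0022 without 6-hour replicate 2, 6-hour replicate 4 and day 14 replicate 4, within a range up to 0.10 over arrays left out. The cause was not tested. Of 139 named genes, 111 kept their direction and side of the threshold in all alternatives that measured them. Some named genes were absent without genes under the 40th percentile or without cross-hybridizing probe sets, and those fits could not test them. The largest rises and falls were chosen to keep their call with arrays centred, so centring was no test of their calls. Signals near the background limit the size of the largest changes and of others whose lower group was dim.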

Other observations

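Gene families picked by symbol after the data were seen held further genes that moved together from 6 hours to day 14 (log2 changes ± SE, adjusted p by limma over all genes). Of 39 proteasome subunits measured, 33 were higher and 0 lower, with a median of 0.99. Psmd9, an assembly factor, went from 320.5 ± 166 (SD, n = 5) to 1958 ± 190.2 (2.75 ± 0.24, adjusted p = 5.17e-10), and Psma1, of the core, changed by 1.80 ± 0.13 (adjusted p = 3.9e-11). Among 75 proteins of the mitochondrial ribosome 69 were higher and 1 was lower (median 0.93). The lower one, Mrps6, was at -0.26 and turned to 0.39 with arrays centred. Of 15 cytosolic aminoacyl-tRNA synthetases, which charge tRNAs for translation, 13 were higher and 0 lower (median 0.78), with Rars at 1.54 ± 0.13 (adjusted p = 5.24e-10). Of the 16 mitochondrial ones 1 was higher and 0 were lower (median 0.15), against 8 and 0 with arrays centred (median 0.80; cytosolic 15 of 15), and the difference between these families was not tested.

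Among families of vessel guidance, 9 of 21 Ephs and ephrins were lower and 0 higher (median -1.05), or 6 and 2 with arrays centred (median -0.40). Efnb2, an ephrin of arteries, went from 1666 ± 469 to 199 ± 17.8 (-3.02 ± 0.18, adjusted p = 7.69e-13), and its venous receptor Ephb4 changed by -2.27 ± 0.17 (adjusted p = 2.91e-11). Integrin subunits had 12 of 27 lower and 2 higher, with a median of -0.61 that turned to 0.04 with arrays centred. In the BCL2 family of apoptosis regulators 10 of 19 were lower and 4 higher (median -0.91), or 5 and 6 with arrays centred (median -0.26). Pmaip1, or Noxa, changed by -2.57 ± 0.27 (adjusted p = 2.32e-08) and the death effector Bak1 by 1.16 ± 0.13 (adjusted p = 2.87e-08). Of 16 clock genes 8 were lower and 0 higher (median -0.79), or 6 and 2 with arrays centred (median -0.14). Per2 changed by -1.64 (adjusted p = 4.65e-07). The time of day at which cells were taken is not given in the labels.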
